A study of Homo sapiens with 6 samples.

Results

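The fibrinogen chain genes FGA, FGB and FGG and the fibrinogen-like gene FGL1 were followed in HepG2 cells, a human hepatocellular carcinoma line. The 4 genes were taken by name: each symbol matched 1 Ensembl gene among the 60240 genes of the deposited table. The series holds 3 libraries of HepG2 cultures given GDF11 protein at 100 ng/ml for 24 h and 3 libraries of control cultures. GDF11, growth differentiation factor 11, is a secreted ligand of the TGF-beta family. Both groups were grown in the same serum-containing high-glucose medium, carry no engineered allele that the labels mention and come from 1 cell line. The labels speak of biological replicates but do not say whether these were separate passages, so the p-values measure the spread between these cultures.

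Fibrinogen is the plasma protein from which clots are built. Hepatocytes make its alpha, beta and gamma chains, join them in equal numbers in the endoplasmic reticulum and secrete the complete molecule. Thrombin then cuts short peptides from the alpha and beta chains, the remainder polymerises as fibrin, and plasmin later dissolves it. The 3 chain genes lie side by side and are known in liver as acute phase genes that interleukin-6, through STAT3 and C/EBP factors, and glucocorticoids induce together. FGL1 encodes a protein that hepatocytes secrete, with a fibrinogen-like domain but no part in the clot; it is known as a liver growth factor and as a ligand of the immune receptor LAG3.

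All 4 genes held less RNA in GDF11-treated cells. FGA stood at 21.3% of the control level, FGG at 24.4%, FGB at 37.0% and FGL1 at 60.4%, as ratios of mean normalised reads. The 3 chain genes were called lower under each of 16 alternative settings, whereas FGL1 was called under 11 of them. All 4 members passed the filter on low values. Of 18723 genes tested with limma, 10.8% were called lower, meaning a decrease with a Benjamini-Hochberg adjusted p under 0.05. Among the 2260 tested genes with a mean at or above that of the lowest member, 17.2% were called lower and 9.42% higher.

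In GRCh38.p14 the cluster lies on chromosome 4, with FGB (ENSG00000171564.11) at 154562980 to 154572807, FGA (ENSG00000171560.16) at 154583126 to 154590742 and FGG (ENSG00000171557.17) at 154604136 to 154612656. FGB is read on the plus strand, FGA and FGG on the minus strand. The cluster spans 49.7 kb, with 10.3 kb between FGB and FGA and 13.4 kb between FGA and FGG. In the annotation's canonical transcripts FGA has 5 exons, FGB 8 and FGG 9. The 250 bases before the RefSeq start of each chain gene are shown, because the chain genes moved together and these stretches are where their known interleukin-6 control elements lie. They are RefSeq sequences of GRCh38.p14, written 5′ to 3′ on the strand of the gene. Capitals mark CTGGGA, the core of the interleukin-6 response element of fibrinogen genes, on either strand.
FGA promoter, chr4:154590743-154590992: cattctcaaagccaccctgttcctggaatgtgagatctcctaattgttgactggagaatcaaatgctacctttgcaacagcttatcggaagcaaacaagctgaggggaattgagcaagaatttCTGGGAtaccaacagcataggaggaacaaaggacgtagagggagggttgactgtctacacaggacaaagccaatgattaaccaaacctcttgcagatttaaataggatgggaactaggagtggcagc
FGB promoter, chr4:154562730-154562979: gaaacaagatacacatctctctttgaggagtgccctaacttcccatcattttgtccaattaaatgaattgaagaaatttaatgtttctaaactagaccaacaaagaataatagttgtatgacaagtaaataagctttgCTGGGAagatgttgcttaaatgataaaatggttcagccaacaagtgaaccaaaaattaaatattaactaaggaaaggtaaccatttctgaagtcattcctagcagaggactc
FGG promoter, chr4:154612657-154612906: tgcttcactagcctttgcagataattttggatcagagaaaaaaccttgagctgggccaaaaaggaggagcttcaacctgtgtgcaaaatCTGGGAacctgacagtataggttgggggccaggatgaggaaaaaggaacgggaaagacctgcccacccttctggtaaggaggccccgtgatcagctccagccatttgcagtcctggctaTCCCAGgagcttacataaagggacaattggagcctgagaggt

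The letters CTGGGA stood in all 3 windows on the strand of the gene, starting at -127 in FGA, -112 in FGB and -161 in FGG, where -1 is the base just before the RefSeq start. FGG held a further copy on the opposite strand, from -42 to -37. Of all 35116 windows of this length in the table, 28.7% held CTGGGA on either strand. The C/EBP letters TTGCNNAA matched in FGA from -141 on the opposite strand and in FGB from -101, as they did in 9.05% of all windows. The STAT letters TTCNNNGAA matched in FGA only, at -231, against 6.57% of all windows. CAGAC, a form of the SMAD-binding element of TGF-beta signalling, matched in none of the 3 windows and in 38.0% of all. Shorter forms of that element were not searched for, so the windows may still hold them. None of these matches overlapped another, and they describe letters, not binding.

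FGA encodes the alpha chain, which carries the fibrinopeptide that thrombin cuts first. It had 15898, 16895 and 16915 normalised reads in GDF11 replicates 1, 2 and 3, against 64209, 95191 and 73431 in control replicates 1, 2 and 3. Normalised reads are the deposited log2 values turned back to a linear scale at a common depth. The GDF11 cultures lay close together and far below the lowest control. On the deposited log2 scale FGA averaged 14.02 ± 0.051 with GDF11 and 16.23 ± 0.29 in controls (SD, n = 3 each), and fell by 2.20 ± 0.18 (SE; limma adjusted p = 8.62e-05). Of the 18723 tested genes, 23 had a more negative difference on this scale, which compresses differences at low values.

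FGG encodes the gamma chain, which holds the sites for cross-linking by factor XIII and for the platelet integrin. It had 10934, 11424 and 13208 normalised reads with GDF11, against 44502, 51131 and 50207 in controls. Its log2 values averaged 13.54 ± 0.14 with GDF11 and 15.57 ± 0.11 in controls, and it fell by 2.03 ± 0.16 (limma adjusted p = 5.71e-05). As for FGA, the groups stood far apart: the lowest control exceeded the highest GDF11 culture by 1.75 on the log2 scale, and by 1.92 for FGA.

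FGB encodes the beta chain, and in HepG2 cells this chain is known to limit fibrinogen assembly, with alpha and gamma chains made in surplus. It had 3225, 2734 and 3665 normalised reads with GDF11, against 8065, 9382 and 8570.2 in controls. Log2 values averaged 11.68 ± 0.21 with GDF11 and 13.09 ± 0.11 in controls, and the gene fell by 1.42 ± 0.16 (limma adjusted p = 0.000413). The groups did not overlap, with 1.12 on the log2 scale between them.

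FGL1 (ENSG00000104760.17), which lies on chromosome 8 at 17864389 to 17895538 and has 8 exons, changed least of the 4. It had 4048, 2771 and 3114 normalised reads with GDF11, against 4969, 5914 and 5559 in controls. GDF11 replicate 1 lay nearest to the controls, 0.29 on the log2 scale below the lowest of them. Log2 values averaged 11.71 ± 0.27 with GDF11 and 12.44 ± 0.13 in controls, and the gene fell by 0.73 ± 0.17 (limma adjusted p = 0.0182). In 19.6% of the tested genes every GDF11 library lay below every control, as in these 4, and in 40.5% the groups did not overlap in either direction.

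**Figure D1:**
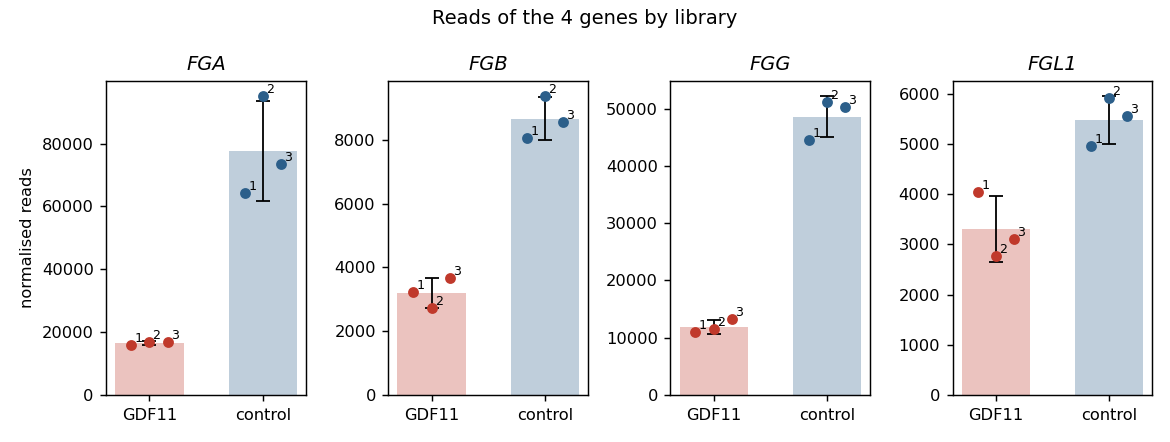
Normalised reads (vertical axis, linear from 0, a scale of its own in each panel) of FGA, FGB, FGG and FGL1; points are libraries with their replicate number, bars the group mean and error bars the SD (n = 3 each). Every GDF11 culture lies below every control, by the widest margin for FGA and FGG and the narrowest for FGL1.

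The FGL1 call ended without GDF11 replicate 2 (difference -0.61, adjusted p = 0.0873), without GDF11 replicate 3 (-0.69, adjusted p = 0.0752) and without control replicate 2 (-0.67, adjusted p = 0.0594). A covariate for the RNA integrity number of the library also ended it (-0.55, limma adjusted p = 0.210). The number was 9.6, 9.5 and 9.4 in GDF11 replicates 1, 2 and 3 and 9.8, 9.9 and 9.6 in control replicates 1, 2 and 3. The groups met only at 9.6, so a fit with this covariate cannot fully separate integrity from group. The SE of the FGL1 difference was 0.24 with the covariate and 0.17 without it. With the same covariate the differences were -2.06 for FGA, -2.15 for FGG and -1.43 for FGB, and all 3 calls held. Scaling every library to the same total of reads raised the median difference of all tested genes to 0.20. That scaling put FGL1 at -0.55 (limma adjusted p = 0.0824), a difference of -0.75 from that median. It put FGA at -2.02, FGG at -1.85 and FGB at -1.25, all called. Over the whole table, leaving out control replicate 3 gave 3647 genes higher and 3993 lower, against 2185 and 2017 with it. On the log2 scale that library lay between the other controls for each of the 4 genes, and all 4 were called without it. As a share of the library's reads it was the highest control for FGB, FGG and FGL1.

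**Figure D2:**
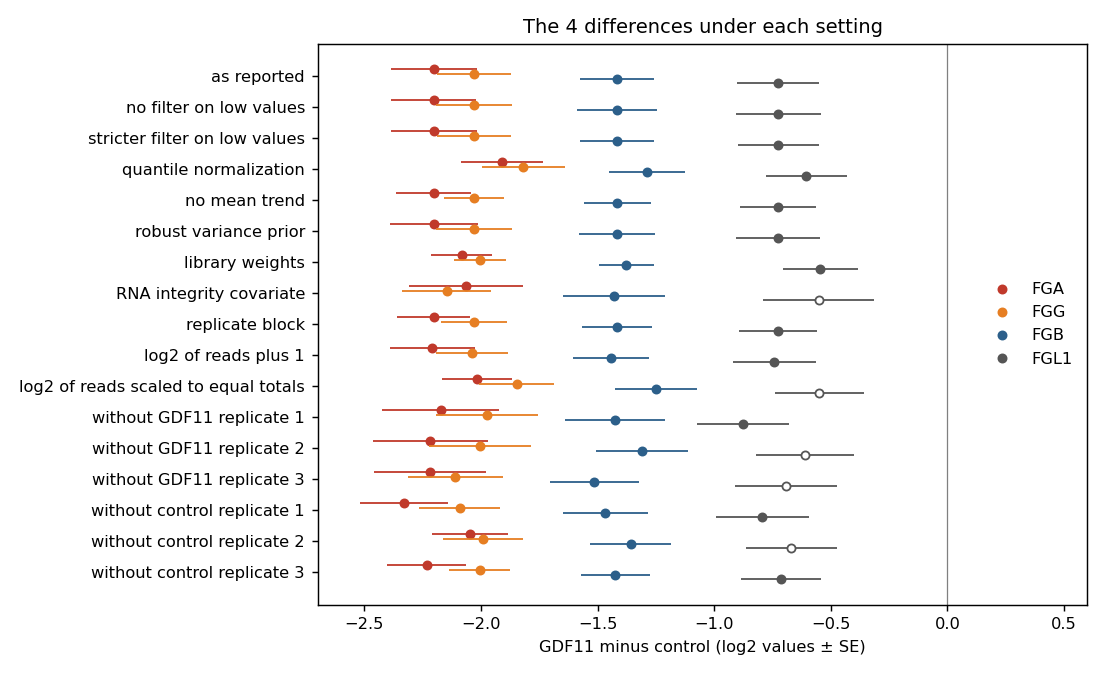
Differences between GDF11 and control (log2 values with SE, horizontal axis) of the 4 genes under the reported fit and 16 alternatives (vertical axis); filled points have an adjusted p under 0.05, open points do not. FGA, FGG and FGB lie at or left of -1.25 in every row, while FGL1 lies between -0.88 and -0.54 and is open in 5 rows.

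Fibrinogen RNA took a smaller share of the library's reads as well. The 3 chain genes together held 638, 640.2 and 757 RPM, that is normalised reads scaled by the library's total, in GDF11 replicates 1, 2 and 3, against 2108, 2619.5 and 2868 in control replicates 1, 2 and 3. Ranked by reads among all genes of a library, FGA was the 416th, 400th and 358th gene with GDF11, against the 105th, 83rd and 61st in controls. FGL1 held 85.9, 57.1 and 69.8 RPM with GDF11, against 89.7, 99.5 and 121 in controls. On that scale too the groups did not overlap, though FGL1 in GDF11 replicate 1 nearly reached control replicate 1. In bulk RNA, fewer cells making a transcript and less of it per cell cannot be told apart.

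Within each library the chain genes stood at unequal levels. Per kilobase of canonical transcript, FGA averaged 7501 ± 263 normalised reads with GDF11 and 35134 ± 7201 in controls. FGG averaged 5722 ± 578 with GDF11 and 23462 ± 1733 in controls, FGL1 averaged 2676 ± 534 with GDF11 and 4431 ± 386 in controls, and FGB averaged 881 ± 128 with GDF11 and 2382 ± 182 in controls (SD, n = 3 each). This order held in both groups, and no neighbours in it overlapped within a group. The length matters, since the canonical FGB transcript is 3641 bases long for a coding sequence of 1473, and the files do not say which transcripts were counted. Per kilobase of coding sequence, FGA and FGG had nearly the same level, 8576 ± 301 and 8723 ± 881 with GDF11 and 40171 ± 8234 and 35771 ± 2642 in controls. FGB remained below both, at 2178 ± 316 with GDF11 and 5888 ± 451 in controls. On that scale FGL1, at 3537 ± 706 with GDF11 and 5855 ± 510 in controls, lay above FGB with GDF11 and overlapped it in controls.

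The gap between the abundant chains and FGB was narrower with GDF11. Per kilobase of transcript, FGA exceeded FGB by a ratio of 8.64 ± 1.36 with GDF11 and 14.7 ± 1.86 in controls, and FGG exceeded FGB by 6.54 ± 0.72 with GDF11 and 9.86 ± 0.38 in controls (SD, n = 3 each). Per kilobase of coding sequence the FGA to FGB ratio ran between 3.52 and 4.71 with GDF11, against 6.07 and 7.74 in controls. A difference between genes of 1 library cancels whatever scales that library as a whole, so 6 pairs of members were compared in this way. The log2 value of FGA minus that of FGB was 2.27, 2.59 and 2.18 with GDF11, against 2.98, 3.33 and 3.09 in controls, a change of -0.79. FGB minus FGG was -1.73, -2.03 and -1.82 with GDF11, against -2.45, -2.43 and -2.54 in controls, a change of 0.61. In both pairs the groups did not overlap. The two-sided exact permutation p was 0.1, the smallest that 3 against 3 can give (0.12 adjusted over the 6 pairs).

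FGA and FGG, in contrast, kept overlapping distances. FGA minus FGG was 0.54, 0.56 and 0.35 with GDF11, against 0.53, 0.90 and 0.55 in controls, a change of -0.17 (two-sided exact permutation p = 0.5). It ranged from -0.24 to -0.054 over the alternatives, so these data do not separate the decreases of FGA and FGG. FGL1 diverged from each chain gene: the change was -1.48 for FGA minus FGL1, -1.30 for FGG minus FGL1 and -0.69 for FGB minus FGL1. In these 3 pairs the groups did not overlap either (exact permutation p = 0.1 for each, 0.12 adjusted over the 6 pairs).

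**Figure D3:**
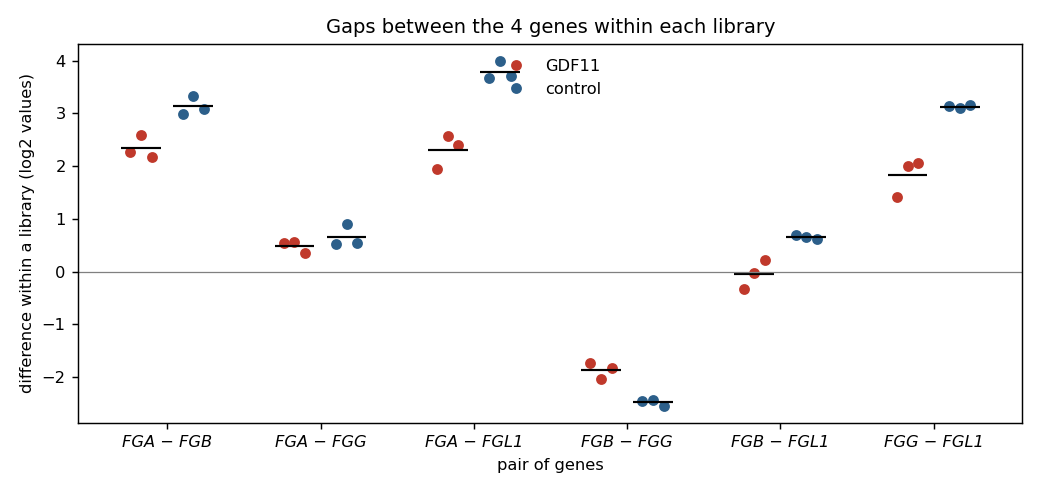
Difference between the log2 values of a pair of genes within a library (vertical axis) for the 6 pairs (horizontal axis), GDF11 libraries left and controls right in each pair, with lines at the group means. The groups are apart in every pair but FGA minus FGG, where 0.35 to 0.56 with GDF11 overlaps 0.53 to 0.90 in controls.

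The genes next to the cluster were set beside it. PLRG1, a splicing factor gene whose annotation ends 12.6 kb before the start of FGB, had log2 values of 11.47 ± 0.12 with GDF11 and 11.66 ± 0.21 in controls (difference -0.19 ± 0.16, limma adjusted p = 0.420). DCHS2, a cadherin gene further out, was close to the lowest value of the table at 5.94 ± 0.18 with GDF11 and 6.20 ± 0.22 in controls (-0.25 ± 0.13, limma adjusted p = 0.209). Neither was called. LRAT, RBM46 and SFRP2 were at or near the lowest value and were not tested. With library weights PLRG1 was called lower (-0.35, adjusted p = 0.0344), a decrease smaller than that of any chain gene.

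**Figure D4:**
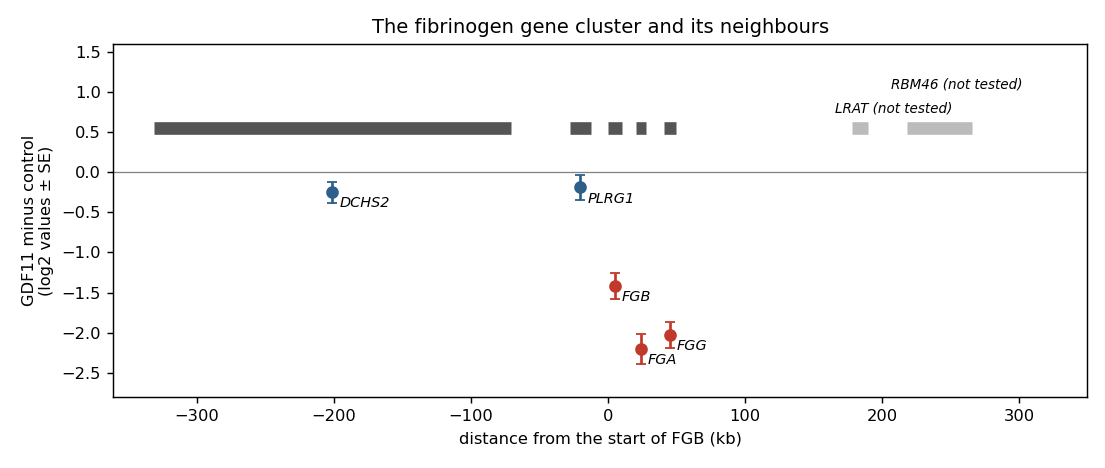
Differences between GDF11 and control (log2 values with SE, vertical axis) of genes by their distance from the start of FGB (kb, horizontal axis); bars above the line show the extent of each gene, and grey bars genes at or near the lowest value. FGB, FGA and FGG lie between -2.20 and -1.42, and PLRG1 and DCHS2 at -0.19 and -0.25.

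Several regulators known to act on fibrinogen genes were lower, while parts of the interleukin-6 pathway were not. Of 21 genes of that pathway and of liver transcription factors, all tested, 6 were called lower, 2 higher and 13 not, with a median difference of -0.35 against 0.0056 over all tested genes. Of all tested genes, 10.8% were called lower and 11.7% higher. CEBPB, for an acute phase factor that interleukin-6 induces, fell by 0.76 ± 0.18 (limma adjusted p = 0.0161), and CEBPD, for a related factor, fell by 0.75 ± 0.15 (limma adjusted p = 0.00797). ONECUT1, for a further liver factor, fell by 0.93 ± 0.18, FOXA2 fell by 0.83 ± 0.18 and FOXA3, named after its values were seen, fell by 0.97 ± 0.26. CEBPA, the main C/EBP factor of resting hepatocytes, was not called (-0.54 ± 0.18, limma adjusted p = 0.0562), though 6 of the 16 alternatives called it lower, among them library weights (-0.61).

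Of the signalling genes, SOCS3, a feedback inhibitor that STAT3 induces, rose by 0.85 ± 0.14 (limma adjusted p = 0.00285), and the kinase gene JAK1 rose by 1.02 ± 0.19 (limma adjusted p = 0.00592). STAT3 itself had 13.55 ± 0.061 with GDF11 and 13.05 ± 0.25 in controls (0.50 ± 0.17, limma adjusted p = 0.0632) and was not called, though 5 of the 16 alternatives called it higher. The receptor genes IL6R (0.26 ± 0.27, limma adjusted p = 0.520) and IL6ST (0.22 ± 0.35, limma adjusted p = 0.685) were not called. With the RNA integrity covariate the calls of CEBPB (-0.45), CEBPD (-0.69), FOXA2 (-0.42), FOXA3 (-0.21) and JAK1 (0.57) were among those that ended, leaving 1 gene higher and 1 lower. When control replicate 3 was left out, 9 of these genes were called higher and 10 lower, among them STAT3 (0.64), IL6R (0.59), IL6ST (0.67) and CEBPA (-0.69). Without GDF11 replicate 3 the number lower was 2, and CEBPB at -0.72, FOXA2 at -0.79 and FOXA3 at -0.85 were among those no longer called. Without GDF11 replicate 1 it was 3, and CEBPB at -0.76 and FOXA3 at -1.01 were among those no longer called. FOXA3 also lost its call without control replicate 1 (-0.84) and control replicate 2 (-0.80).

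Some of the other acute phase genes were lower as well. Of 20 such genes 15 were tested, and 5 were called lower, 0 higher and 10 not, with a median difference of -0.23. The share called lower was 33.3%, against 10.8% of all tested genes, of which 11.7% were called higher. By limma 6 had an unadjusted p under 0.05 in this list, all of them lower. HAMP, for the iron hormone hepcidin, fell by 1.49 ± 0.17 and SAA4, for a constitutive serum amyloid, fell by 1.59 ± 0.22. HP, the haemoglobin scavenger haptoglobin, fell by 1.26 ± 0.18; its reads can be shared with its near-identical relative HPR. LRG1 fell by 0.69 ± 0.16 and CP, for the copper protein ceruloplasmin, fell by 0.64 ± 0.19. ITIH3 had a difference of -0.48 ± 0.20 (limma adjusted p = 0.118) and was not called. The abundant inhibitor gene SERPINA1, chosen after its values were seen, had 19.18 ± 0.14 with GDF11 and 19.13 ± 0.45 in controls and was not called either. CRP and APCS, pentraxins of the acute phase, were at the lowest value in all 6 libraries.

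The number of acute phase genes called lower was 3 without GDF11 replicate 1, 2 or 3 or without control replicate 1. LRG1 then stood at -0.68, -0.71, -0.67 and -0.65, and CP at -0.64, -0.56, -0.73 and -0.72, in that order of libraries. The CP call also ended without control replicate 2 (-0.73), with quantile normalization (-0.48), with equal totals (-0.46) and with no filter (-0.64), and the LRG1 call with the RNA integrity covariate (-0.39).

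Coagulation factors and their inhibitors were lower in part. Of 24 genes 20 were tested, and 7 were called lower, 2 higher and 11 not, with a median difference of -0.29. That made 35% lower and 10% higher, against 10.8% and 11.7% of all tested genes. KNG1, for kininogen of the contact pathway, fell by 1.46 ± 0.15 and F7, for the partner of tissue factor, fell by 1.30 ± 0.18. SERPINC1, for antithrombin, the main inhibitor of thrombin, fell by 1.36 ± 0.20, VWF, at low values, fell by 0.87 ± 0.15, and F11 fell by 0.75 ± 0.16. F3, for tissue factor, which starts clotting, rose by 0.69 ± 0.14; with the RNA integrity covariate VWF (-0.59) and F3 (0.45) were not called. The other gene called higher was SERPINA5, for the protein C inhibitor (0.56 ± 0.16), named after its values were seen. F2, for prothrombin, likewise chosen afterwards, had 14.46 ± 0.11 with GDF11 and 14.72 ± 0.25 in controls and was not called (-0.26 ± 0.18, limma adjusted p = 0.313). F9, F13A1, KLKB1 and THBD were at or near the lowest value and were not tested. The F11 call ended without GDF11 replicate 1 (-0.71) and with equal totals (-0.64). SERPINA5 lost its call without GDF11 replicate 1 (0.49), 2 (0.61) or 3 (0.58) or control replicate 1 (0.47) or 2 (0.62), and F3 was then the only coagulation gene called higher.

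Genes of fibrin breakdown moved in both directions. Of 15 genes 13 were tested, and 6 were called higher, 2 lower and 5 not, with a median difference of 0.23. The shares were 46.2% higher and 15.4% lower, against 11.7% and 10.8% of all tested genes. SERPINE2, which inhibits thrombin and plasminogen activators, stood at 11.60 ± 0.16 with GDF11 and 8.74 ± 0.46 in controls and rose by 2.86 ± 0.23 (limma adjusted p = 7e-05), and the serine protease inhibitor gene TFPI2 rose by 1.03 ± 0.12. On the activator side, PLAU, for urokinase, rose by 2.03 ± 0.24 and its receptor gene PLAUR by 1.83 ± 0.14. S100A10, a plasminogen receptor subunit (0.69 ± 0.17), was called higher as well. CPB2, whose product TAFI protects fibrin from plasmin, fell by 1.26 ± 0.13 and SERPINF2, for the plasmin inhibitor antiplasmin, fell by 1.27 ± 0.19. S100A10 and SERPINF2 were named after their values were seen, and the S100A10 call ended without GDF11 replicate 1 (0.68) or 2 (0.64).

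The fibrinogen-like domain, which FGL1 and the beta and gamma chains share, also occurs in other proteins. Of 19 such genes 8 passed the filter; 3 were called higher, 0 lower and 5 not, with a median difference of 0.40, and by limma 4 had an unadjusted p under 0.05, all of them higher. Of all tested genes, 10.8% were called lower and 11.7% higher, so 0 lower among 8 does not set this list apart. ANGPTL2, an angiopoietin-like protein gene, stood at 12.99 ± 0.089 with GDF11 and 8.66 ± 0.21 in controls and rose by 4.33 ± 0.16. FIBCD1 rose by 0.63 ± 0.18 and MFAP4 by 0.58 ± 0.14; ANGPTL1 (0.53 ± 0.18) and ANGPTL6 (-0.28 ± 0.16) were not called. With the RNA integrity covariate FIBCD1 (0.94) and MFAP4 (0.41) were not called and ANGPTL1 was (0.89). ANGPTL1 was called higher under 5 of the 16 alternatives, including equal totals (0.75). FGL2, for a prothrombinase of immune cells, was close to the lowest value, at 6.27 ± 0.12 with GDF11 and 6.08 ± 0.085 in controls, and was not called. Without GDF11 replicate 1 only ANGPTL2 was called, with MFAP4 at 0.50 and FIBCD1 at 0.68. FIBCD1 also lost its call without GDF11 replicate 2 (0.58) or 3 (0.63) or control replicate 2 (0.70) and with quantile normalization (0.54), and MFAP4 without control replicate 1 (0.51) or 2 (0.50).

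Genes for folding and export of secreted proteins were not called in either direction. Of 22 genes, all tested, 0 passed the threshold, against 10.8% called lower and 11.7% higher over all tested genes. By limma 2 had an unadjusted p under 0.05, both higher, and the median difference was 0.11. SEL1L, part of the degradation machinery of the endoplasmic reticulum, had the lowest p, with 12.60 ± 0.26 with GDF11 and 11.97 ± 0.43 in controls (0.63 ± 0.23, limma adjusted p = 0.0843). MCFD2, part of a cargo receptor for clotting factors, had a difference of 0.46 ± 0.19 (limma adjusted p = 0.110). Without control replicate 3, 7 of these genes were called higher, among them SEL1L (0.82) and MCFD2 (0.62), and 3 lower.

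**Figure D5:**
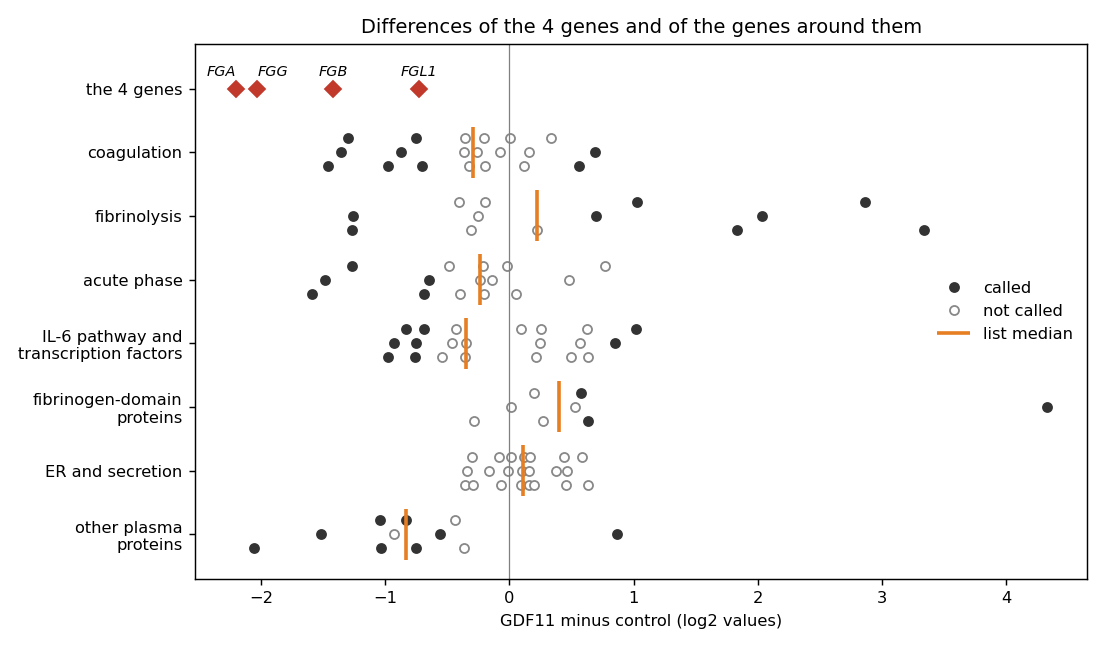
Differences between GDF11 and control (log2 values, horizontal axis) of the 4 genes (diamonds) and of the tested genes of 7 lists (rows; filled points are called, with an adjusted p under 0.05, and orange lines are list medians). FGA lies at -2.20, left of every listed gene, and FGG at -2.03, left of all but RBP4 among the other plasma proteins. This order holds on the log2 scale only, which compresses differences at low values. VWF, at -0.87, averaged 7.05 normalised reads with GDF11 and 50.6 in controls.

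The profiles most like that of the chain genes were looked up by distance. Each gene's log2 values were centred on their mean, and the root mean square distance over the 6 libraries from the averaged profile of FGA, FGB and FGG was taken, a distance that includes the contrast between the groups. The 6 nearest genes were FABP1, for the liver fatty acid binding protein (distance 0.109), HEPACAM, for a cell adhesion protein (0.113), ADH6, for an alcohol dehydrogenase (0.116), HNF4A-AS1, a non-coding RNA opposite HNF4A (0.119), GNG4, for a G protein subunit (0.119), and TIMP3, for a metalloproteinase inhibitor (0.144). FGG itself lay at 0.0920, FGA at 0.186, FGB at 0.245 and FGL1 at 0.605. The 6 differences were between -1.93 for FABP1 and -1.63 for TIMP3. HNF4A-AS1 had low values, 6.27 ± 0.093 with GDF11 and 7.96 ± 0.054 in controls, where the scale compresses differences, and the sources used here do not say whether its reads were separated from those of HNF4A by strand.

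Over the whole table, estimated depth was 49076397 to 53373957 reads per library with GDF11, against 47945556 to 50248968 in controls. All 11 plasma protein genes looked up, which include the defining hepatocyte markers ALB, TTR, TF and APOA1, were well above the lowest value in both groups. Of 18 markers of other cell types, 5 (TEK, PTPRC, CD3E, PF4 and GP9) were at the lowest value in all 6 libraries. Reads over these 18 markers summed to between 27001 and 34315 per library with GDF11, against 12515 to 18509 in controls. Of these markers KRT19, a bile duct keratin gene, held the most reads, 20089.7 to 26422 with GDF11, against 6086 to 9991 in controls. Without KRT19 the sums overlapped, at 6911 to 8339 with GDF11 and 6429 to 9449 in controls. Of the 8 tested, 4 were called higher, namely KRT19 (1.48 ± 0.21), the fibroblast collagen gene COL1A1 (3.22 ± 0.23), PDGFRB (0.92 ± 0.23) and KRT7 (0.71 ± 0.18). ACTA2, for smooth muscle actin, fell by 0.98 ± 0.23. Over all tested genes the shares were 11.7% higher and 10.8% lower. Other fibroblast markers, COL1A2, COL3A1, DCN and PDGFRA, were at or near the lowest value and were not tested. Without control replicate 2, and with the RNA integrity covariate, KRT19 and COL1A1 alone were called higher and 0 markers lower. Without GDF11 replicate 2 the counts were 2 higher and 1 lower, and without GDF11 replicate 1 or 3 or control replicate 1 they were 3 higher and 0 lower. The part of these markers in the decrease of the fibrinogen genes was not tested.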

How the data were processed

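Total RNA of 6 HepG2 cultures was sequenced as 75-base single reads from directional libraries of 250 ng of RNA, per the labels' protocols. The authors deposited 1 table of variance-stabilised log2 values, as its name says, with every gene without reads at 5.52. The submitters' processing notes name DESeq2, Trimmomatic, Salmon 1.2.1 and GRCh38, while STAR 2.6 and hg19 are named per the labels' protocols. Neither says which pipeline made these values, nor how antisense reads were counted.

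With t = 2 to the power of a value and K that of the lowest value, normalised reads were (t - K) squared divided by t, the inverse of the usual variance-stabilising curve. Of low values (up to 20 reads), 71.0% to 74.2% per library came out whole within 0.01, too few to treat them as counts. Depth was estimated from the step of 1 read. No libraries of a group were close enough to be 1 library deposited again (chi-square over degrees of freedom 26.5 to 220.3).

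Genes with a mean at least 0.5 above the lowest value entered limma 3.58.1 under R 4.3.3 (mean trend, no covariate, two-sided, adjusted over 18723 genes, threshold 0.05). The script was tested on simulated data. Symbols matched 96.9% of the IDs. Positions and promoters are from RefSeq (GRCh38.p14); transcript and coding lengths are from a GRCh37 annotation. The members and lists were chosen with earlier results of these data known. Beyond the 4 members, regulators including CEBPA, CEBPB, CEBPD, STAT3, IL6R, IL6ST and SOCS3 were named whatever their result, with up to 6 genes of each list by lowest p and the 6 nearest profiles; some genes under this rule are counted but not reported by name here. Alternatives covered filters, normalization, weights for libraries, the variance prior, RNA integrity, a replicate block, the scale, and each library left out; equal totals were added after seeing the data.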

Additional observations from a re-analysis of the deposited data

How the results depend on the processing

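FGA, FGB and FGG kept their direction and their calls under all 16 alternatives, with differences of -2.33 to -1.91, -1.51 to -1.25 and -2.15 to -1.82. The filters, the mean trend, the variance prior and the replicate block leave a difference as it is. They could change calls but not directions. FGL1 stayed lower in all 16, but was not called with the RNA integrity covariate (-0.55) or equal totals (-0.55), and it ranged from -0.88 to -0.61 when each library was left out in turn, with 3 calls lost. The 6 within-library gaps kept their direction under all 9 alternatives. Equal totals scale a whole library, so that setting gave nearly the same gaps as log2 of reads plus 1. With same-numbered libraries as a replicate block, all 4 genes were called (FGL1 -0.73, adjusted p = 0.00897). Deviations from the group means correlated at -0.088, 0.38 and 0.48 across genes for numbers 1, 2 and 3. Differently numbered libraries were not compared in this way, so these values cannot decide whether the cultures were paired.

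Counts of listed genes moved more. With 1 library left out, coagulation genes higher numbered 1 to 2, acute phase genes lower 3 to 6, fibrinogen-domain genes higher 1 to 4, and secretion genes higher 0 to 7 and lower 0 to 3. In the list of interleukin-6 and transcription factor genes, the number higher was 2 to 9 and the number lower 2 to 10. Over all genes 1397 to 3647 were higher and 955 to 3993 lower. The RNA integrity covariate gave 0 coagulation genes higher, 1 acute phase gene higher, 1 interleukin-6 or transcription factor gene higher and 1 lower, 1 secretion gene lower, and 1149 higher and 721 lower over all genes. Library weights gave 1 acute phase gene higher, 7 interleukin-6 or transcription factor genes higher, 6 secretion genes higher and 2 lower, and 4473 higher and 4554 lower over all genes. The replicate block gave 1 acute phase gene, 6 interleukin-6 or transcription factor genes and 4 secretion genes higher. Over all genes it gave 3147 higher and 3306 lower. Quantile normalization and equal totals gave 1 acute phase gene higher each, no mean trend gave 4 interleukin-6 or transcription factor genes higher, and no filter gave 1 coagulation gene higher. With the RNA integrity covariate, differences that were not called changed sign in ANGPTL6 (0.11), DNAJC3 (-0.13), SEC24D (-0.046), IL6R (-0.56) and IL6ST (-0.84), and IL6ST did so without control replicate 2 (-0.12), ranging up to 0.67 with 1 library left out. The cause of these shifts was not tested.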

Other observations

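Several but not all other plasma protein genes of hepatocytes were lower with GDF11. Among those looked up here, RBP4 alone had a difference as large as that of FGG. Of 11 such genes, all tested, 7 were called lower, 1 higher and 3 not, with a median difference of -0.83 against 0.0056 over all tested genes. The share called lower was 63.6%, against 10.8% of all tested genes. Among tested genes with a mean at or above that of the lowest member it was 17.2%. RBP4, for the retinol carrier, stood at 13.23 ± 0.21 with GDF11 and 15.29 ± 0.55 in controls and fell by 2.05 ± 0.27 (limma adjusted p = 0.000858). TTR, for transthyretin, to which that carrier binds in plasma, stood at 10.89 ± 0.14 with GDF11 and 12.40 ± 0.50 in controls and fell by 1.52 ± 0.24. APOH fell by 1.04 ± 0.20, AHSG fell by 1.03 ± 0.22, APOB fell by 0.83 ± 0.21 and ALB, for albumin, fell by 0.75 ± 0.17. TF (-0.37 ± 0.21, limma adjusted p = 0.248) and APOA1 (-0.93 ± 0.29, limma adjusted p = 0.0527) were not called. In the acute phase list, 10 of 15 tested genes were not called, the abundant SERPINA1 among them. VTN, for the adhesion protein vitronectin, was named after its values were seen; it had 14.50 ± 0.19 with GDF11 and 13.64 ± 0.49 in controls and rose by 0.86 ± 0.25 (limma adjusted p = 0.0357).

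RBP4 and TTR were called in every fit with a library left out. The ALB call ended without GDF11 replicate 1 (-0.80), 2 (-0.71) or 3 (-0.75), AHSG without GDF11 replicate 3 (-0.96), and APOB without GDF11 replicate 1 (-0.76) or 2 (-0.78) or control replicate 1 (-0.88). With the RNA integrity covariate the calls of APOH (-0.64), AHSG (-0.58) and ALB (-0.74) ended, with quantile normalization those of ALB (-0.29) and APOB (-0.41), and with equal totals that of APOB (-0.64). The number of the 11 genes called lower was 4 to 9 with a library left out, and 4 with the RNA integrity covariate. The VTN call ended without GDF11 replicate 1 (0.78), 2 (0.85) or 3 (0.97) or control replicate 1 (0.82).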
